A study of Canis lupus familiaris with 6 samples.

Results

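The earliest of 3 times of scribble hairpin induction was measured on 2 of the 6 arrays of the series, the pair taken 30 h after tetracycline (Tet) addition. The cells were the MDCK-II line scribKD, dog kidney tubule epithelial cells that express a short hairpin RNA against scribble under the control of Tet. All cells carried the hairpin: the group without Tet was grown for 30 h at 0 µg/ml, and the group with Tet received 5 µg/ml at 6 h after plating at 154000 cells per well. Each array held total RNA mixed from 3 wells of 1 condition, labelled with Cy3, so each arm has 1 sample at 30 h, and pairs made the same way exist at 45 h and 60 h. The sources used here do not say whether the line is 1 clone. No cells without the hairpin were given Tet among the samples used here, so an effect of Tet itself and an effect of the hairpin cannot be told apart.

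Scribble is a scaffold protein of the basolateral membrane of epithelial cells. It acts with the Dlg and Lgl proteins to set apart the apical and basolateral domains, and it also helps to organise cell junctions and to restrain growth signalling. MDCK-II cells form polarised sheets with tight junctions and are a standard model of this process. A hairpin RNA is processed into a small interfering RNA that lowers the mRNA it matches, and protein loss follows as the existing protein decays.

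The knockdown could not be checked, because no probe carried the name SCRIB. Of 43603 probes that were not controls, 2326 could be named, for 1437 genes, and 41250 had no name in the tables used here. None of 22 listed polarity complex genes had a named probe. On the 30 h arrays 64.3% of spots without Tet and 66.4% with Tet were well above background, and 0 spots were saturated.

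Levels below are log2 signal relative to the 75th percentile of the same array, which stands at 0, and a difference is the level with Tet minus the level without Tet. Few probes differed strongly at this time. Of 27604 probes well above background on both arrays, 222 differed by at least 2-fold (a log2 difference of at least 1 in size), which is 0.804%, with 80 higher and 142 lower with Tet. With normexp background correction the count was 36, of which 6 were higher and 30 lower. This alternative starts from the median spot and background signals, adds an offset of 50 to every spot and then applies quantile scaling. The 75th percentile of the processed signal was 639 without and 635 with Tet, so the offset is large beside a dim signal. It therefore shrinks differences between dim signals by construction. The same count with the deposited background correction was 571 of 28802 at 45 h (1.98%) and 1266 of 28208 at 60 h (4.49%). The smaller limit of 0.58, about 1.5-fold, was passed at 30 h by 872 probes, or 3.16%, with 330 higher and 542 lower.

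With 1 array per arm there is no replicate check and no p-value for a single difference, and the only error that the pair shows lies within the arrays. Over the 5 spots each of 26 repeated probes, the 30 h difference had a pooled SD of 0.093. Among 10 synthetic spike-in RNAs, probe means lay between -0.36 and 0.01. The lowest were dim: -0.36 at a level of -4.11 without Tet, and -0.30 and -0.29 at -7.57 and -7.61. The one at -1.82 gave -0.10, and those from -0.84 up lay between -0.02 and 0.01. Over 6771 probes well above background with a mean level under -3, the median difference was -0.0006. Whether single dim genes carry such a shift was not tested. Different probes of 1 named gene disagreed by a median SD of 0.053 over 388 genes, with a largest SD of 0.98. These values do not include the spread between cultures, which was not measured.

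Among 984 named genes well above background on both arrays, 9 were higher and 24 were lower by at least 0.58, and 4 and 7 of them passed 2-fold. Together they are 3.35% of the named genes, near the 3.16% of all probes. Of the 24 lower genes, 17 were lower at 45 h and at 60 h too, and 13 were lower by at least 0.58 at both later times. With normexp correction 1 of the 9 higher and 13 of the 24 lower genes still passed 0.58. The 3 lowest differences were those of chemokines.

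**Figure D1:**
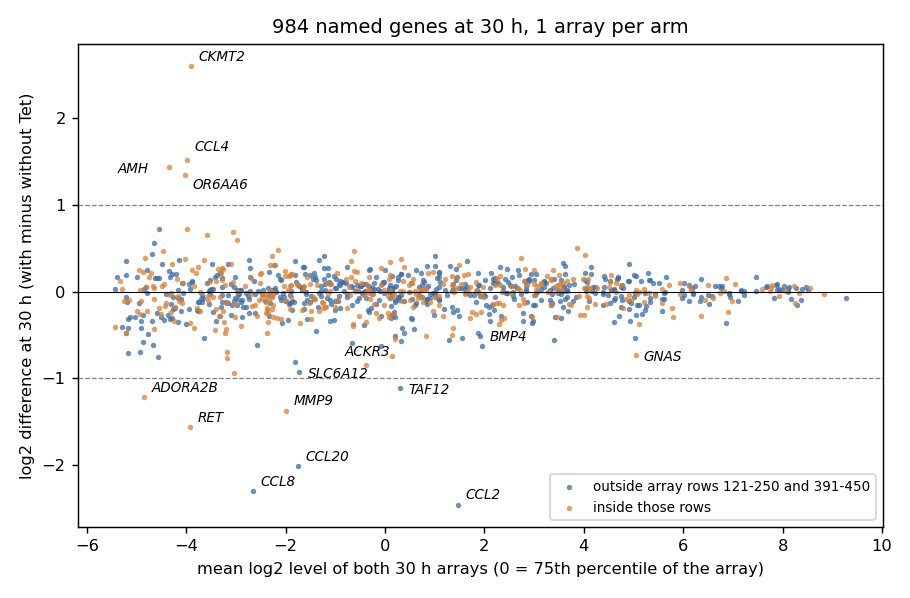
Log2 difference at 30 h (with minus without Tet, vertical axis) against the mean log2 level of both 30 h arrays (horizontal axis, 0 being the 75th percentile of an array) for 984 named genes, 1 point each. Dashed lines mark 2-fold, and orange points lie in array rows 121 to 250 or 391 to 450. The chemokines CCL2, CCL8 and CCL20 lie lowest, and the 4 genes past 2-fold above 0 are all orange and all at a low level.

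CCL2, the chemokine that attracts monocytes, had the lowest difference among named genes well above background on both arrays. Its level was 2.70 without Tet and 0.23 with Tet at 30 h, a difference of -2.46, or 5.51-fold lower. Without Tet it stood at 2.62 at 45 h and 2.36 at 60 h, and with Tet at -1.01 and -1.24, so the arrays of the 2 arms did not overlap and the later differences were -3.63 and -3.60. CCL8, a related monocyte chemokine, stood at -1.50 without and -3.80 with Tet at 30 h, which is 4.94-fold lower. The difference was -3.05 at 45 h and -2.87 at 60 h. With normexp correction the 30 h difference of CCL8 was -1.21.

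CCL20 attracts lymphocytes and dendritic cells through the receptor CCR6. It stood at -0.74 without and -2.76 with Tet at 30 h, a difference of -2.02, and the later differences were -2.81 and -3.01. For CCL2, CCL8 and CCL20 the level without Tet at 30 h was near that of the later arrays without Tet, while the level with Tet lay above that of both later arrays with Tet. CXCL10, an interferon-induced chemokine for T cells, stood at -2.80 and -3.57 at 30 h. Its difference was -0.77 at 30 h, -1.15 at 45 h and -1.92 at 60 h, and a second probe gave -0.83 at 30 h. With normexp correction the 30 h difference was -0.43.

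The chemokine list as a whole had 9 measured members of 21 with a probe, of which 8 were lower and 1 was higher. Its median was -0.77 against 0.02 for all probes, with 5 members lower and 1 higher by at least 0.58, where 1.96% of all probes were lower and 1.20% higher by that much. With normexp correction the list median was -0.43. Without it the median was -0.93 at 45 h and -0.14 at 60 h. The members that did not pass 0.58 were CCL5, CCL17 and CX3CL1, at -0.33, -0.15 and -0.30. CCL17 is a ligand of CCR4 on T cells and CX3CL1 a membrane-bound chemokine.

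Other genes were lower by a like amount at all 3 times. TAF12, part of the TFIID complex that starts transcription, stood at 0.86 without and -0.26 with Tet at 30 h. Its differences were -1.12, -1.09 and -1.14 at 30, 45 and 60 h, so the full difference was present at the first time. SLC6A12, the betaine transporter that kidney cells use against osmotic stress, stood at -1.27 and -2.21 and differed by -0.93, -1.08 and -0.88. CHST4, a sulfotransferase that acts on carbohydrates, stood at 0.51 and -0.24 and differed by -0.75, -1.16 and -0.76.

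GNAS encodes the alpha subunit of the stimulatory G protein, which couples hormone receptors to adenylyl cyclase. It stood at 5.42 without and 4.68 with Tet at 30 h, a difference of -0.74, then -0.79 and -0.84. Its 4 other probes were lower too, from -1.04 to -0.71. BMP4, a secreted growth factor of the TGF-beta family, stood at 2.27 and 1.65 and differed by -0.63, -1.22 and -0.71. SLC29A1, a nucleoside transporter, differed by -0.59, -0.81 and -0.98. These genes were lower with Tet on every pair.

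MMP9, a protease that cleaves type IV collagen and gelatin, stood at -1.30 without and -2.68 with Tet at 30 h. The difference was -1.38 at 30 h, -3.12 at 45 h and -2.09 at 60 h, and a second probe gave -1.27 at 30 h. ARHGAP1, a GTPase-activating protein, stood at -2.56 and -3.50 and differed by -0.93, -0.51 and -0.50. HTR1D, a serotonin receptor, differed by -0.81, -0.58 and -0.18. With normexp correction these came to -0.60 for ARHGAP1 and -0.50 for HTR1D at 30 h. LTB, which anchors the TNF-like ligand lymphotoxin at the cell surface, stood at -4.82 and -5.53 at 30 h, and its arrays with Tet at 45 h and 60 h were not well above background.

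Among transcripts without a gene name, ENSCAFT00000014480 had 3 probes that were each lower by at least 2-fold at all 3 times, and it was chosen after its values were seen. Their differences were -1.35, -1.35 and -1.11 at 30 h. At 45 h the same probes gave -2.03, -2.34 and -2.36, and at 60 h -1.08, -1.66 and -1.81. On 1 of these probes the level was 6.97 without and 5.61 with Tet at 30 h.

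**Figure D2:**
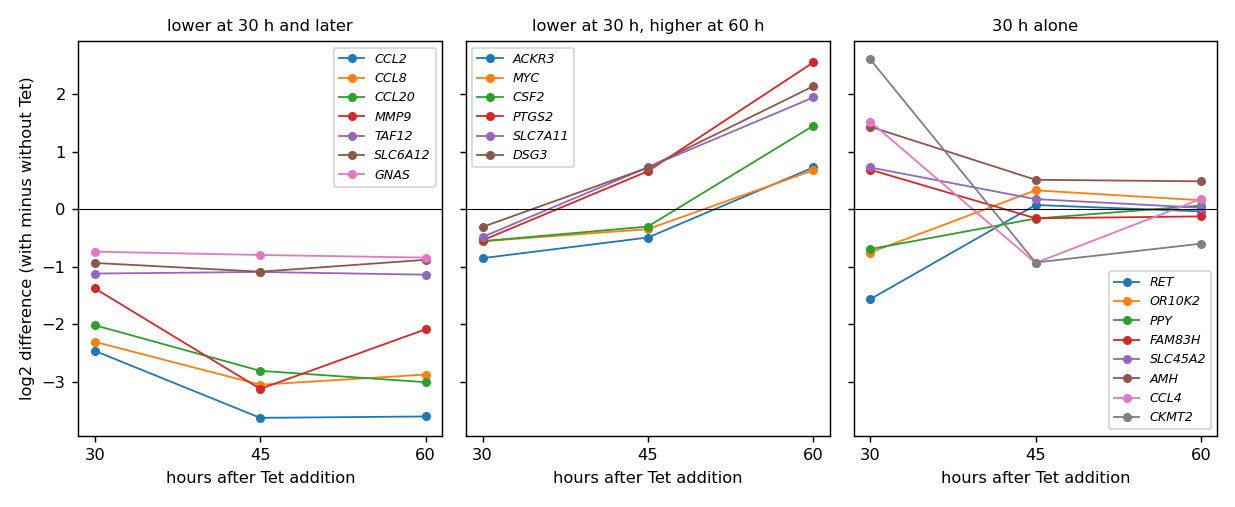
Log2 difference (with minus without Tet) at 30, 45 and 60 h after Tet addition, 1 pair of arrays per time and no error bars since each arm has 1 array. The left panel shows genes lower at every time, the middle panel genes below 0 at 30 h and above 0 at 60 h, and the right panel the 8 named genes with a difference at 30 h alone. Lines join the points of a gene; PTGS2 runs from -0.54 to 2.55 and CKMT2 from 2.61 to -0.60.

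Several signalling genes were lower with Tet at 30 h and higher at 60 h. PTGS2, the inducible cyclooxygenase that makes prostaglandin precursors, stood at 1.83 without and 1.29 with Tet at 30 h. The differences were -0.54, 0.66 and 2.55. Without Tet the level went down over the arrays, to 0.80 at 45 h and -0.06 at 60 h, while with Tet it was 1.46 and 2.50. CSF2, the cytokine GM-CSF, stood at 3.68 and 3.13 at 30 h and differed by -0.55, -0.30 and 1.45, and its second probe gave -0.59 at 30 h.

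MYC, a transcription factor that drives growth, stood at 1.56 and 1.0 at 30 h and differed by -0.56, -0.35 and 0.68. ACKR3, a scavenging receptor for the chemokine CXCL12, stood at 0.05 and -0.80 and differed by -0.85, -0.49 and 0.73. SLC7A11, the cystine importer that feeds glutathione synthesis, differed by -0.48, 0.73 and 1.94. DSG3, a desmosomal cadherin, differed by -0.31, 0.72 and 2.14. S1PR1, a receptor for sphingosine 1-phosphate, differed by -0.61 at 30 h (-0.20 with normexp correction) and 0.56 at 45 h, and by at least 1.72 at 60 h, since its 60 h array without Tet was not well above background.

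These changes of sign were counted over the genes that differed by 2-fold at 60 h, a choice that uses the 30 h arrays only in asking for signal well above background on all 6 arrays. Of 31 named genes higher by at least 2-fold at 60 h, 12 were above 0 at 30 h, with a median 30 h difference of -0.10, and 8 were at -0.30 or lower. Over all probes, 470 were higher by 2-fold at 60 h, of which 306 (65.1%) were above 0 at 30 h. Their median was 0.10, and 43 of the 470 were at -0.30 or lower. Of 41 named genes lower by 2-fold at 60 h, 35 were below 0 at 30 h, with a median of -0.24. For all 685 such probes that number was 550 (80.3%), with the same median of -0.24.

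Several named genes with high differences at 60 h had small differences at 30 h. ABCB1, a drug efflux pump, differed by 0.10, 1.18 and 3.05. PLAU, the urokinase that activates plasminogen, differed by -0.14, 0.68 and 2.63. SNAI2, a repressor of epithelial genes, differed by -0.10, 0.99 and 2.60. For genes lower at the end, the carbonic anhydrase CA2 stood at 7.05 and 6.68 at 30 h and differed by -0.37, -1.06 and -1.77, and the receptor FGFR2 by -0.26, -1.11 and -2.36.

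Over the 27226 probes well above background on all 6 arrays, 185 differed by at least 2-fold at 30 h. Of these, 55 lasted, with at least 0.5 in the same direction at both later times, and 50 of the 55 were lower. Another 101 probes, 0.371%, were found at 30 h alone, with under 0.5 in the same direction at 45 h and at 60 h, of which 47 were higher and 54 lower. The same rule gave 80 probes for 45 h alone and 319 for 60 h alone. The remaining 29 probes fell under neither rule.

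The named-gene rule asked for a difference of at least 0.58 at 30 h and less than 0.5 of it in the same direction later. Of 973 named genes well above background on all 6 arrays, 5 were higher and 3 lower at 30 h alone by this rule. It differs from the probe rule above, and no count over all probes by it is given here. Whether these counts are high for that many genes can therefore not be told. CKMT2, the mitochondrial creatine kinase of striated muscle, stood at -5.21 without and -2.60 with Tet, a difference of 2.61, or 6.09-fold. It stood between -5.29 and -4.36 on the 4 later arrays and differed by -0.93 at 45 h and -0.60 at 60 h. The single array with Tet at 30 h was therefore high against the other 5. With normexp correction its difference was 1.07.

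CCL4, a chemokine for monocytes and T cells, stood at -4.74 and -3.22 at 30 h and differed by 1.52, then -0.93 and 0.18, so the 1 chemokine above 0 was not so at 45 h. AMH, the anti-Müllerian hormone, differed by 1.44, 0.51 and 0.49, so by the probe rule of under 0.5 later it was not of 30 h alone. FAM83H, a keratin-associated protein, differed by 0.69, -0.16 and -0.12. SLC45A2, a transporter of pigment cells, differed by 0.73, 0.18 and 0.03. With normexp correction all 4 came under 0.58, at 0.52 for CCL4, 0.46 for AMH, 0.38 for FAM83H and 0.20 for SLC45A2.

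RET, the receptor of glial cell line-derived growth factors that guides kidney branching, stood at -3.14 without and -4.70 with Tet at 30 h. The difference was -1.56 at 30 h, 0.07 at 45 h and -0.04 at 60 h. The 4 later arrays lay between -4.72 and -4.47, so here the array without Tet at 30 h was the one that stood apart. With normexp correction the difference was -0.67. PPY, the pancreatic polypeptide, differed by -0.69, -0.16 and 0.06, and the olfactory receptor OR10K2 by -0.75, 0.33 and 0.16. With normexp correction PPY came to -0.38 and OR10K2 to -0.26, both under 0.58 in size.

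OR6AA6, another olfactory receptor, differed by 1.35 at 30 h and 1.36 at 45 h but by -1.15 at 60 h, so it was not of 30 h alone, and with normexp correction its 30 h difference was 0.49. F2RL1, a protease-activated receptor, was higher by 0.59, 0.75 and 0.52, and COL9A2, a collagen chain, by 0.66, 0.51 and 1.39, though both came under 0.58 at 30 h with normexp correction (0.41 and 0.38). Those are the 2 named genes higher by at least 0.58 at 30 h that stayed above 0.5 at both later times. The ninth higher gene, the defensin DEFB122, was at 0.73 at 30 h and was not well above background on either array at 60 h. ADORA2B, an adenosine receptor, differed by -1.22 at 30 h (-0.37 with normexp correction) and 0.74 at 45 h. At 60 h its array with Tet was not well above background, and it was at least 1.86-fold lower with Tet.

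Probes found at 30 h alone were dim and lay together on the array. Their median mean level was -3.73 for the higher and -4.09 for the lower ones, against -1.52 for the lasting lower probes and -0.84 for all probes. Rows 121 to 250 and 391 to 450, 190 of 532 rows and chosen after the data were seen, held 37.0% of tested probes, but 93.6% of the higher and 92.6% of the lower probes of 30 h alone. They held 48% of the lasting lower ones. By the same rule they held 67 of the 80 probes of 45 h alone and 169 of the 319 of 60 h alone. In those rows 174 of 10260 probes passed 2-fold at 30 h (1.70%), and outside them 48 of 17344 (0.277%), of which 6 were higher and 42 lower.

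Outside those rows 7 probes were of 30 h alone, against 94 inside. The array that stood farther from the later ones was that with Tet for 40 of the 47 higher probes, and that without Tet for 50 of the 54 lower probes. The lower ones had a median level of -3.17 without Tet at 30 h, while the other 5 arrays had medians between -4.84 and -4.53. For the higher ones the median was -2.91 with Tet at 30 h and between -4.38 and -3.93 on the other 5. Of the named genes of 30 h alone, CKMT2, CCL4, AMH, FAM83H, RET and PPY lie in those rows and SLC45A2 and OR10K2 outside. The part of array position in these differences was not tested.

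**Figure D3:**
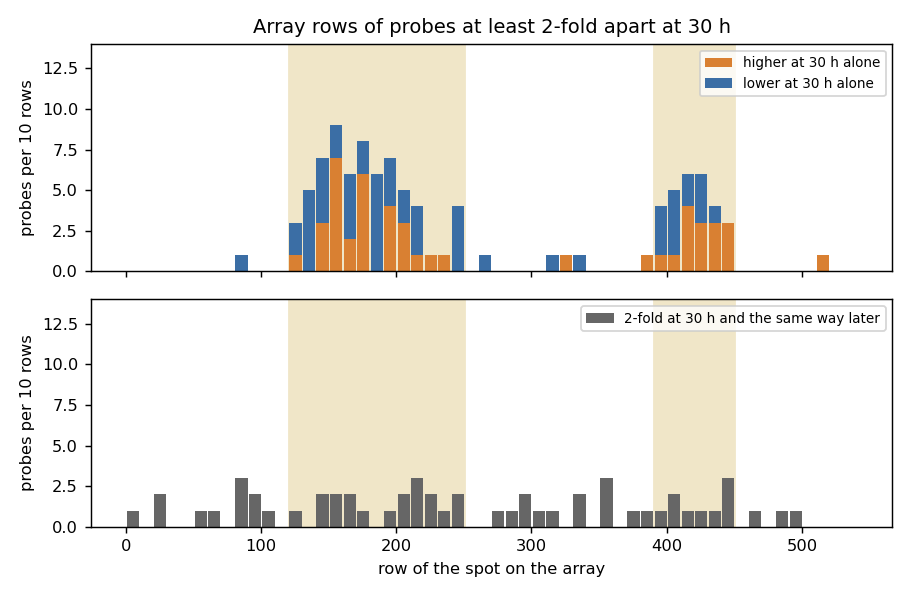
Number of probes per 10 array rows (vertical axis) against the row of the spot (horizontal axis), for probes at least 2-fold apart at 30 h and well above background on all 6 arrays. The upper panel holds the 101 probes of 30 h alone, the lower panel the 55 that lasted, and shading marks rows 121 to 250 and 391 to 450. The shaded rows hold 94 of the 101 upper probes and 28 of the 55 lower ones.

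The named lower genes were less tied to those rows than the higher ones. Of the named genes past 0.58, 9 of 24 lower and 8 of 9 higher ones lie inside them. Over all probes past 2-fold, 100 of 142 lower and 74 of 80 higher ones lie inside. CCL2, CCL8, CCL20, TAF12, SLC6A12, BMP4 and SLC29A1 lie outside, while RET, ADORA2B, ARHGAP1, ACKR3, CXCL10 and CHST4 lie inside. The brightest probes of MMP9 and GNAS lie inside too. The second MMP9 probe lies outside and gave -1.27. For GNAS the outside probes past 2-fold gave -1.04, the lowest of its other probes, which reached up to -0.71. Of the 118 probes lower by 2-fold at 30 h on the 6 arrays, 85 (72.0%) were lower at 45 h and 48 by 2-fold. Outside those rows 33 of 34 were lower at 45 h (97.1%) and 30 of 34 at 60 h (88.2%). Inside them 52 of 84 (61.9%) were lower at 45 h and 55 (65.5%) at 60 h. Of the 67 higher probes, 37 (55.2%) were higher at 45 h and 35 (52.2%) at 60 h. Only 6 of these lie outside those rows, of which 5 were higher at 45 h and 4 at 60 h.

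The pairs at 30 h and 45 h share no array. Across 27226 probes, which are not independent replicates, their differences had a Pearson correlation of 0.45, and of 0.62 for probes with a level of -3 or more. The 30 h and 60 h differences correlated at 0.31 and the 45 h and 60 h differences at 0.70. Both 30 h arrays and the 45 h array without Tet lie on slide 1, and the other 3 on slide 2. The 45 h pair is thus split over the slides, and Tet and slide cannot be told apart in its difference. That difference enters the rules for lasting and for 30 h alone, the correlations and the limma test below.

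The design allows 1 test of the 30 h pair, of whether its difference departs from the mean of the later differences, with limma and 1 residual degree of freedom. Of 27226 probes 0 passed an adjusted p of 0.05, and 1906 (7%) had an unadjusted p under 0.05. The smallest adjusted p, 0.241 in limma, was shared by CKMT2, whose 30 h difference lay 3.37 above the later mean. In limma the adjusted p was 0.349 for RET, 0.693 for CCL4, 0.434 for CCL2 and 0.706 for PTGS2. So no single difference was shown to be particular to 30 h. The test counts any trend from 45 h to 60 h as spread, such as that of PTGS2 from 0.66 to 2.55.

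Most gene lists lay near 0 at 30 h, and few of their members passed 0.58. The 13 cytokines and NF-kappaB targets had a median of -0.15, with 5 higher and 8 lower and 1, LTB, past 0.58. With normexp correction the median was -0.01 and LTB came to -0.13, so 0 of its members passed. BIRC3, an inhibitor of apoptosis that NF-kappaB induces, was at 0.37 and ICAM1, an adhesion molecule, at 0.15, while TNF was at -0.23. The list median went to 0.11 at 45 h and 0.24 at 60 h. All probes had a median of 0.02 at 30 h, with 14907 above and 12697 below 0.

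Of 9 interferon-induced genes 8 were lower, with a median of -0.09, then -0.34 and -0.68. The antiviral GTPase MX1 stood at 1.08 and 0.56 at 30 h, a difference of -0.52, and CXCL10 was the 1 member past 0.58. The peptide transporter TAP1 was at -0.19 and the immunoproteasome subunits PSMB8 and PSMB9 at -0.06 and -0.07. All 3 measured immediate early genes were below 0, with a median of -0.22, FOSB being at -0.05 and NR4A1 at -0.22. The 5 lipid mediator genes were all below 0, with a median of -0.34, among them the prostaglandin E synthase PTGES at -0.34 and the prostaglandin receptors PTGER2 and PTGER4 at -0.21 and -0.32.

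Of the targets of the Hippo pathway, which scribble is known to feed into, F3 (tissue factor, which starts blood clotting) was at 0.32 at 30 h and BIRC5 (survivin) at 0.08. Of 5 mesenchymal transition genes 4 were lower, with a median of -0.15. The intermediate filament protein VIM stood at 8.37 and 8.22, a difference of -0.15, and S100A4 was at -0.35. MMP9 was the 1 member past 0.58.

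Junction genes differed little at 30 h. The 6 tight junction genes had a median of -0.13, from -0.31 for the scaffold TJP1 to 0.11 for OCLN, and 0 passed 0.58. The 7 adherens junction, desmosome and keratin genes had a median of -0.04, and E-cadherin, CDH1, stood at 2.44 and 2.43. In the tubule transport list 8 of 11 were lower, with a median of -0.14, then -0.31 and -0.36. The potassium channel KCNJ16 was at -0.44 and the sodium pump subunits ATP1B1 and FXYD2 at -0.14 and -0.20. Of 11 solute carriers 9 were lower, with a median of -0.13, and SLC6A12 and SLC29A1 passed 0.58.

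Lists of general cell functions lay near 0 as well. The 19 ribosomal proteins had a median of 0.03 and stayed between -0.05 and 0.09, and GAPDH was at 0.01. The 15 endoplasmic reticulum folding and translocon genes had a median of 0.08 with 11 higher, led by SSR1 at 0.25 and SRP54 at 0.24, both of the machinery that brings new proteins to the membrane. Of 15 p53 targets and apoptosis regulators 10 were higher, with a median of 0.07, from -0.48 for the survival factor BCL2L1 to 0.37 for BIRC3. The p53 targets MDM2 and BAX were at 0.30 and 0.26 and PMAIP1 at -0.18. Of 17 Rab and vesicle traffic genes 12 were higher, with a median of 0.05, then 0.13 and 0.26, and RAB2A and RAB10 were at 0.28 and 0.26.

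The lists of actin cytoskeleton genes (8), cell cycle genes (8), hypoxia and glycolysis genes (9), heat shock proteins (5), lysosomal genes (17) and oxidative stress genes (11) had medians between -0.02 and 0.02, with 0 members past 0.58. Of 12 matrix genes 6 were higher and 6 lower, with a median of 0.04, and MMP9 alone passed 0.58. The protease inhibitor TIMP3 was at 0.29. Of 11 growth factor receptors and ligands RET alone passed 0.58, with a list median of -0.12. Of 13 G protein and hormone signalling genes 8 were lower, with a median of -0.10, and GNAS was among the members past 0.58. The 7 TGF-beta and BMP genes had a median of 0.06, with BMP4 past 0.58, and the 7 mitochondrial genes one of 0.03, with CKMT2 past it. The 4 lipid and cholesterol synthesis genes and the 3 integrated stress response genes were all below 0, with medians of -0.10 and -0.08 and 0 past 0.58.

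**Figure D4:**
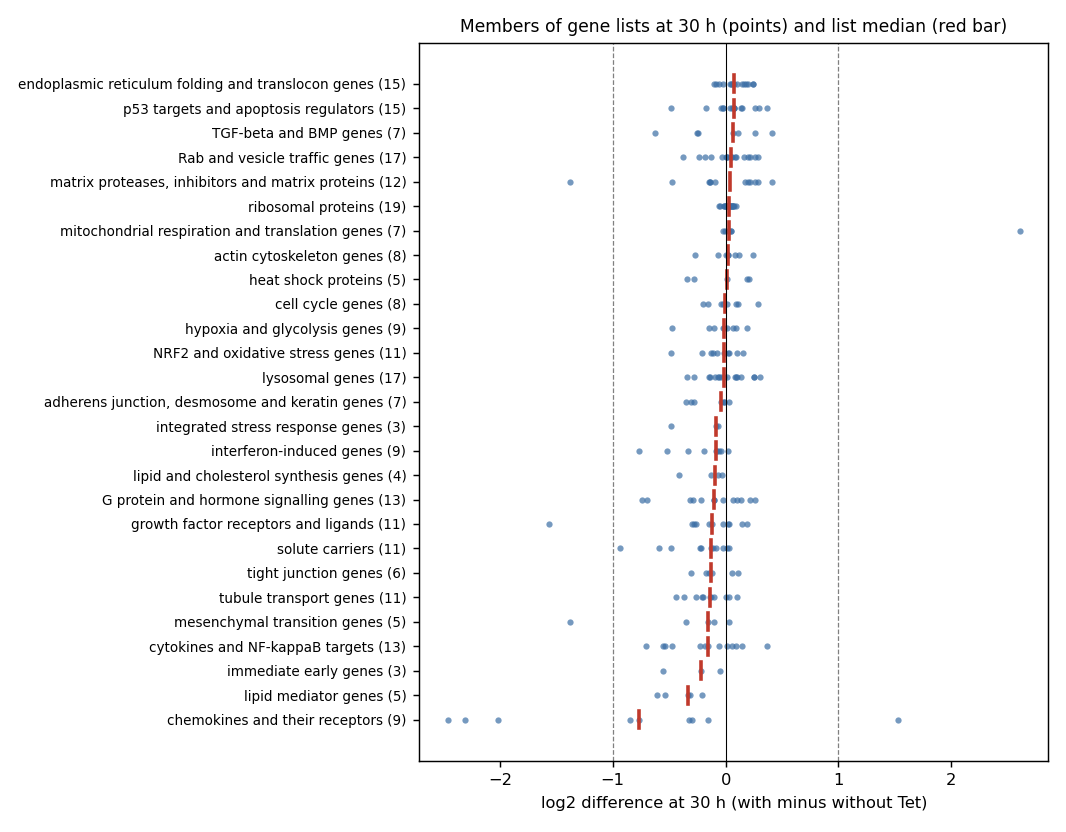
Log2 difference at 30 h (with minus without Tet, horizontal axis) of each measured member of 27 gene lists (1 point per gene, number of members in parentheses), with the list median as a red bar and dashed lines at 2-fold. The chemokine median lies lowest at -0.77, and the highest median among the lists shown is 0.08. The list of Hippo targets, in which F3 was at 0.32, is not shown. Of the points past 2-fold, CKMT2 and CCL4 are the ones above 0.

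A further 45 named genes were well above background on 1 of the 2 arrays at 30 h. For them brighter over dimmer is a lower bound, set against the lowest signal that was well above background on the dim array, or the gene's own signal there if that was higher. Of 41 genes with a bound, 26 were higher and 15 lower with Tet, and 8 and 12 had a bound of at least 2-fold. The direction of a bound is set by which array passed the detection limit, so these counts only describe the filter. Over all probes detected on at least 1 array, 289 were higher and 398 lower by 2-fold with the dim array at its bound. CASQ2, a calcium store protein of muscle, was at least 9.08-fold higher with Tet, measured at -2.37 with Tet against -7.24 without. GATA4, a transcription factor of heart and gut, was at least 6.17-fold higher, and the water channel AQP1 at least 4.01-fold.

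ODAM, a secreted protein of the tooth enamel organ, was at least 6.51-fold lower with Tet, and LDHC, the lactate dehydrogenase of testis, at least 6.06-fold lower. CASQ2 and LDHC were not well above background on any later array. AQP1 was higher at 45 h as well, by 1.23. ODAM went the other way at 60 h, where it was at least 2.66-fold higher with Tet. With normexp correction the log2 differences at 30 h were 1.45 for CASQ2, 1.13 for GATA4, 0.64 for AQP1, -1.12 for ODAM and -0.67 for LDHC, all smaller in size than the bounds. CASQ2, GATA4, AQP1 and ODAM lie in the rows named above and LDHC outside them.

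Of 9 kidney tubule markers with a probe, 8 were well above background on both arrays, UMOD being the exception. Of these 8, 5 were lower and 3 higher, from -0.37 for MUC1 to 0.11 for OCLN, with a median of -0.08, and 0 passed 0.58. Their summed linear level was 128.1 without and 108.1 with Tet, in multiples of the 75th percentile signal, of which KRT19 alone made up 90.8 and 74.9. Fibroblast markers were measured for 4 of 6, with DCN and FBN1 short of that on at least 1 array, and summed to 3.26 and 3.59. Blood and immune markers were measured for 5 of 6, with FCER1A short of it, and summed to 1.25 and 1.19. The endothelial markers VWF and KDR summed to 24.1 and 22.0, of which VWF alone made up 23.98 and 21.88. In a bulk sample fewer cells of a type and less RNA per cell cannot be told apart, and the part of cell make-up in these differences was not tested.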

How the data were processed

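Spot intensity was taken from the deposited scanner files of 6 one-colour arrays, made with Agilent Feature Extraction 11.5.1.1 per the submitters' processing notes and background-subtracted per the file headers. The deposited series matrix holds the same intensity times 1 factor per array (2.30 to 2.62); the sources used here do not say what sets it. Here outlier spots (14 and 10 at 30 h) were left out, log2 of the processed signal less the array's 75th percentile was computed, spots of a probe were averaged, and probes well above background on both arrays were compared. Probe names came from accession matches (2348 of 2441 curated RefSeq accessions matched); a gene's brightest probe stood for it. limma 3.58.1 in R 4.3.3 tested the 30 h difference against the mean later difference (two-sided, Benjamini-Hochberg over all probes) and was tested on simulated data. Its p-values rest on the spread between the 45 h and 60 h differences and on a prior pooled over probes (3.8 degrees of freedom). That spread includes any trend from 45 h to 60 h and does not come from replicate arrays.

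Named genes were the 15 highest and 15 lowest differences of at least 0.58, up to 8 per direction at 30 h alone, up to 4 members per list, and up to 5 per direction measured on 1 array. The members, lists and rules were chosen with earlier results of these data known. Alternatives were quantile and median scaling, normexp on median signals (offset 50, then quantile scaling), the deposited matrix, and other detection filters and fold limits. Leaving out array rows or dim probes was chosen after seeing the data. Some genes are not reported here.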

Additional observations from a re-analysis of the deposited data

Results flagged for a closer look

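Of 973 named genes well above background on all 6 arrays, 3 changed sign. Their difference at 30 h was at least 0.58 in size, with the opposite sign at both 45 h and 60 h. No count over all probes by this rule is given here, so whether 3 is many cannot be told. Among all probes at least 2-fold apart at 30 h, 37 of 67 higher ones were also higher at 45 h. For the lower probes 85 of 118 were also lower at 45 h. OR10K2, an olfactory receptor, was at -0.75 at 30 h, then 0.33 and 0.16. FAM83H was at 0.69, then -0.16 and -0.12. CKMT2 was at 2.61, then -0.93 and -0.60. The difference between 30 h and the later times was tested with limma, where the adjusted p was 0.615 for OR10K2, 0.664 for FAM83H and 0.241 for CKMT2, so none passed 0.05. S1PR1 was also below 0 at 30 h and above 0 at both later times, but it was not well above background on all 6 arrays, so it was not tested. With 1 array per arm and time, these differences have no replicate check.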

How the results depend on the processing

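The count of 222 probes past 2-fold at 30 h (80 higher, 142 lower) depended on how dim spots were treated. It was 36 (6 higher, 30 lower) with normexp background correction, 687 (289, 398) with probes detected on at least 1 array at their bound, and 1966 (951, 1015) with no detection filter. A 1.5-fold limit gave 872 (330, 542) and a 3-fold limit 61 (26, 35). Named genes alone gave 11 (4, 7) with the brightest probe and 11 (4, 7) with the mean of probes. Leaving out array rows 121 to 250 and 391 to 450 gave 48 (6, 42), and leaving out mean levels under -3 gave 61 (10, 51), both chosen after seeing the data. The 101 probes of 30 h alone became 10 with normexp, 7 without those rows and 15 without dim levels; the cause was not tested. Quantile scaling, median scaling, the deposited matrix and kept outlier spots moved neither the total nor the count at 30 h alone by over 1.5 times. The limma test called 0 probes in each of its settings, with 1801 to 2008 at an unadjusted p under 0.05, and 1302 of 17155 without those rows. Of 154 single values and medians, normexp moved 58 by more than the within-array spread, and quantile scaling 6. The mean of a gene's probes moved 6, and no called value changed sign. The 548 probes whose 30 h difference lay at least 1 from the mean later one became 1079 against 60 h alone. Normexp also turned the sign of 5 list medians near 0, those of the adherens junction, TGF-beta, matrix, heat shock and cell cycle lists. The arrays pair by time, and the limma test uses that pairing. No replicate block could be fitted, because there is 1 array per arm and time. With 1 array per arm no array could be left out at 30 h.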

Other observations

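A spot was counted as bright on a single array where its level there was at least 1 above the median of the other 5 arrays, which themselves lay within 0.8 of each other. The array without Tet at 30 h had 35 such spots, of which 33 (94.3%) lay in array rows 121 to 250 and 391 to 450. The array with Tet at 30 h had 32, with 28 (87.5%) in those rows. At 45 h the counts were 33 without Tet (84.8% in those rows) and 23 with Tet (87.0%), and at 60 h 136 (52.2%) and 104 (49.0%).

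The unnamed probes with the largest differences at 30 h all lie in those rows. A_11_P0000032289 and A_11_P069801 were both at -2.87, and A_11_P062351 and A_11_P000002381 at 2.53 and 2.36.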
